A study of Mus musculus with 12 samples.

Results

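The 93 potassium channel genes described here were taken from a table of 32867 mouse genes by their symbols. A gene was included when its symbol was Kcn followed by the letters and number of a subfamily member, and 4 antisense transcripts whose symbols end in os, with or without a number, were left out, as was Kcnrg, which carries no subfamily number. The rule used no measured value. It gathered 30 pore-forming subunits of voltage-gated channels (Kcna, Kcnb, Kcnc, Kcnd, Kcnh and Kcnq), 10 modifying subunits of such channels (Kcnf, Kcng, Kcns and Kcnv), 16 auxiliary subunits (Kcnab, Kcne, Kcnip and Kcnmb), 15 inward rectifiers (Kcnj), 13 tandem-pore leak channels (Kcnk) and 8 channels opened by calcium or sodium or related to these (Kcnma, Kcnn, Kcnt and Kcnu). It also took in Kcnq1ot1, an antisense noncoding RNA that is not a channel.

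RNA was sequenced from whole retinas of 3 mouse models of photoreceptor degeneration and of wild-type C3H mice. Each of the 4 groups held 3 samples. The rd1 samples (Pde6b rd1) were from postnatal day 13, the rd10 samples (Pde6b rd10) from day 23 and the rd2 samples (Prph rd2) from day 29, and the C3H samples were labelled with days 13, 23 and 29, 1 sample for each day. The rd1 allele is a retroviral insertion in Pde6b that leaves no functional protein, rd10 is a point mutation in the same gene, and rd2 is a mutation in Prph2, without which rods form no outer segments. The study's methods give C3H as the background of rd1 and rd2 and C57Bl6/J as that of rd10, whereas the sample labels list C57BL6/J for rd2. Genotype, age, background and sex, which is read from Xist and Ddx3y below, cannot be told apart in the comparison of a model with all 3 C3H samples. The study calls the samples of a group biological replicates without saying whether each came from its own animal or from a pool. The p-values and SEs therefore measure the spread between these samples only, and may not reflect the spread between animals.

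Potassium channels let potassium leave or enter cells and so set the resting potential and shape the light response. In photoreceptors the inner segment carries a potassium current that balances the inward dark current and depends on the modifying subunit Kcnv2. Müller glia, the radial glial cells of the retina, take up the potassium that neurons release and pass it on through inward rectifiers, chiefly Kcnj10.

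Channels that pass potassium share a selectivity filter, a short stretch of the pore that potassium ions cross in single file. The stretches below are the coding strand around the filter in 4 members on which the results turn, read from GRCm38 (each lies in 1 coding exon). Capitals mark the 15 bases of the filter and lower case the 12 bases on each side.
Kcnv2, exon 2 of 2, chr19:27333642-27333680, plus strand: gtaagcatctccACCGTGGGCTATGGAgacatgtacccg
Kcnc2, exon 3 of 5, chr10:112456217-112456255, plus strand: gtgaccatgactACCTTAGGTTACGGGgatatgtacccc
Kcnj14, exon 2 of 3, chr7:45819621-45819659, minus strand: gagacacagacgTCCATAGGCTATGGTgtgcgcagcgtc
Kcnj13, exon 2 of 3, chr1:87389009-87389047, minus strand: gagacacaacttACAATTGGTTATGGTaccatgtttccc
The voltage-gated Kcnv2 and Kcnc2 had 27 of 39 bases in common, and the inward rectifiers Kcnj14 and Kcnj13 had 20 of 39. The motif ACNNNNGGNTANGGN was searched in reading frame, on the coding strand only, in the coding transcripts of GENCODE vM21. It was present in 56 of the 92 coding members (60.9%) and in 117 of 21901 coding genes in all (0.534%). All 8 Kcna, 4 Kcnc, 5 Kcnq, 4 Kcng and 3 Kcns members held it, whereas none of the 16 auxiliary subunits and none of the 8 Kcnh members did. Kcnj14 lacked it by its first base, and held the shorter motif GGNTANGGN that lies within it, as did 61 members (66.3%) and 6.13% of all coding genes.

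Reads counted on genes ranged from 17049495 to 24755890 per sample, of which 80646 to 143442 fell on the members. The targeted genes followed the labels, with Pde6b at 4937 to 6253 counts in rd1 against 24335 to 29129 in C3H, and Prph2 lower in rd2 than in C3H (log2 fold change -1.06, SE 0.05), while Pde6b in rd10 was lower by less (-0.57, SE 0.03). Xist, transcribed in female cells, had 8 to 10 counts in the C3H samples and 13428 to 83716 in the models, and Ddx3y, on the Y chromosome, had 0 counts in the rd1 samples and at least 757 in all others, so that sex differed between groups. Every rd10 and rd2 sample had many counts of both genes, so that each mixed RNA of females and males and was not from 1 animal. The part of sex in the results was not tested. By these genes the rd1 samples were female, the C3H samples male and the rd10 and rd2 samples mixed. Sex can therefore not be told apart from genotype in any comparison with C3H. The members Kcnd1 and Kcne1l lie on the X chromosome, which says nothing of sex in the other members. Among members with a mean of at least 1 FPKM (reads scaled to transcript length and to sequencing depth) in C3H, 0 of 59 differed by 1.5-fold or more between the C3H samples labelled days 13 and 29, against 3.17% of 14081 genes. The range over these members was -0.21 to 0.43 on the log2 scale. Between replicates 1 and 3 of a model, which share a day, 3.72% of genes differed this much in rd1, 2.26% in rd10 and 3.04% in rd2. The C3H samples thus differed about as often as samples of the same day, so that these values give no measure of age. Runs with only the C3H sample of the same day rest on its label. Exons of 27 members overlap a gene on the other strand, and the strand setting of the counting was not given in the sources used here, so that reads of such a pair cannot be told apart. Of the members named below these are Kcnab3, Kcnd3, Kcng2, Kcnip4, Kcnj6, Kcnj9, Kcnj13, Kcnk1, Kcnk3, Kcnma1, Kcnmb4, Kcnn2, Kcnq1 and Kcnq1ot1.

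In C3H retinas Kcnv2 had the highest level of the members, and Kcnj14 was among the highest. Kcnv2 stood at 168.3, 168.1 and 166.5 FPKM and Kcnj14, an inward rectifier, at 78.4, 76.5 and 79.8. Lower levels were measured for Kcnab2 (46.1 ± 1.2 FPKM, SD, n = 3), a cytoplasmic partner of voltage-gated channels, Kcna5 (31.8 ± 1.6), Kcne2 (30.2 ± 0.26), Kcnma1 (22.5 ± 0.78), the calcium-activated channel of large conductance, and Kcnh5 (19.8 ± 0.31). Kcna5 and Kcne2 did not differ beyond their spread, whereas Kcnv2, Kcnj14 and Kcnab2 each lay apart from the next in this order. Over the 12 samples 60 members had a mean of at least 1 FPKM and 19 of at least 10 FPKM, and Kcnj1, Kcnk7, Kcnk16 and Kcnmb3 had no more than 3 counts in any sample. The summed FPKM of the 93 members was 858 to 877 in C3H, 638 to 646 in rd1, 853 to 879 in rd10 and 846 to 867 in rd2. It was thus lower in each rd1 sample than in any other, and overlapped among the other groups. The share that Kcnv2 and Kcnj14 took of this sum was 28.4% ± 0.27 (SD, n = 3) in C3H, 23.3% ± 0.31 in rd1, 22.5% ± 0.60 in rd2 and 18.3% ± 0.11 in rd10, and each model lay below C3H without overlap. Without these 2 genes the sum was 620.4 ± 9.3 FPKM in C3H, 493 ± 5.1 in rd1, 661 ± 14 in rd2 and 707 ± 12 in rd10. In an exact two-sided permutation test 3 samples against 3 cannot give a p below 0.1, and that value was reached for the difference of this share between each model and C3H. In bulk RNA, fewer cells of a type and less RNA per cell cannot be told apart.

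**Figure D1:**
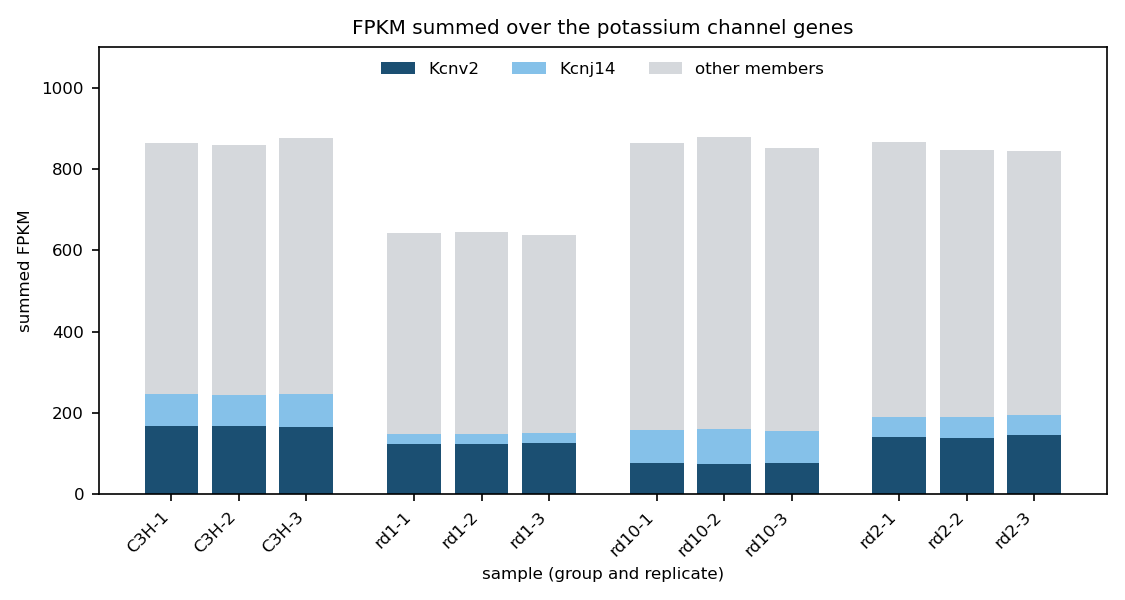
FPKM summed over the 93 potassium channel genes in each sample, with Kcnv2 and Kcnj14 drawn apart from the other members. The 3 rd1 bars end between 638 and 646 FPKM and all other bars between 846 and 879, and the share of the 2 named genes is 28.4% in C3H and 18.3% in rd10.

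Each model was compared with C3H by edgeR's quasi-likelihood test, and a gene was called when its p was under 0.05 and its fold change at least 1.5. In rd1, 17 of 76 members tested were lower (22.4%, against 6.03% of all 18310 genes tested) and 1 was higher (1.32% against 8.98%), and that 1 was the noncoding Kcnq1ot1. The median log2 fold change of the members in rd1 was -0.31, against -0.01 over all genes. In rd10 the balance was the other way, with 19 of 76 members higher (25%, against 15.9% of 18704 genes) and 6 lower (7.89% against 8.08%), and a median of 0.14 against 0.00. In rd2, 3 of 75 members were higher (4% against 2.68% of 18581 genes) and 1 was lower (1.33% against 1.89%), with a median of 0.17 against 0.00. Without the condition on fold change, an adjusted p under 0.05 was reached by 48 members in rd1 (63.2% against 43.2% of all genes), 40 of them lower. In rd10 it was reached by 49 (64.5% against 54.1%), 34 of them higher, and in rd2 by 26 (34.7% against 9.7%), 23 of them higher. In all, 32 members were called in at least 1 model, and 15 of the 93 were too low to be tested in any comparison. Some called members passed the filter on low counts only with the help of the group in which they were high, so that they had to differ: Kcnk15, Kcns3 and Kcnj13 among the 18 called in rd1, and Kcnk15 and Kcnk13 among the 25 called in rd10.

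**Figure D2:**
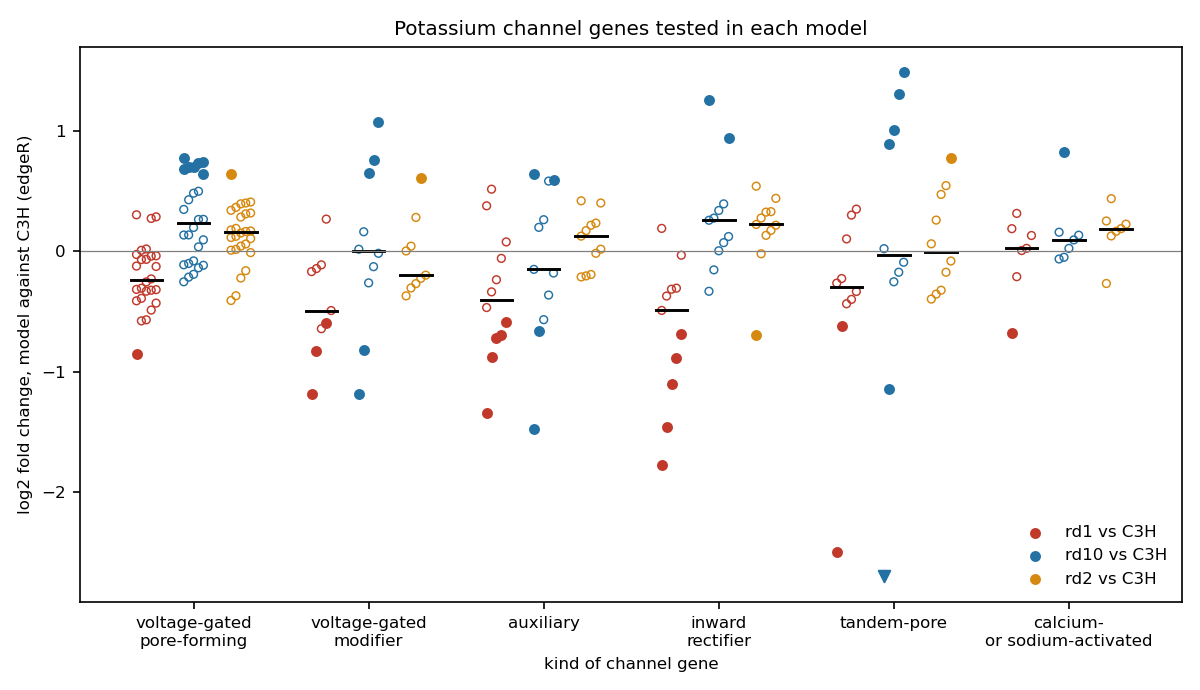
log2 fold change of each tested member in rd1, rd10 and rd2 against C3H, by kind of channel gene, with called members filled, members not called open, and black bars at the medians (Kcnq1ot1 is not drawn). The blue triangle marks Kcnk15 in rd10, fitted at -4.24 and drawn at the lower edge; the rd1 medians lie below 0 in every kind but the calcium- or sodium-activated channels, and 7 pore-forming voltage-gated members were called higher in rd10 with none lower.

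Kcnv2, the modifying subunit of the photoreceptor inner segment, fell in rd10. Kcnv2 was at 77.4, 75.3 and 77.6 FPKM in the rd10 samples, 124.7, 124.5 and 127.4 in rd1 and 142.3, 138.2 and 146.7 in rd2, and each of these groups lay below C3H without overlap. Its log2 fold change was -1.18 in rd10 (SE 0.03, adjusted p = 3.4e-17), or 2.27-fold, which was called. In rd1 it was -0.49 (SE 0.03) and in rd2 -0.27 (SE 0.04), both under the fold threshold. The 8 rod markers examined moved with Kcnv2 only in part, with 4 lower in rd10 (among them Nr2e3 at -1.25), 5 lower in rd1 and 3 lower in rd2. Their summed FPKM was 4636 to 4740 in C3H, 4145 to 4327 in rd10, 2294 to 2338 in rd1 and 3072 to 3309 in rd2, and their part in the Kcnv2 result was not tested. Kcnv2 per summed rod marker FPKM was 0.0359 ± 0.00066 (SD, n = 3) in C3H, 0.0541 ± 0.0012 in rd1, 0.0450 ± 0.0024 in rd2 and 0.0182 ± 0.00069 in rd10, with no overlap between groups.

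**Figure D3:**
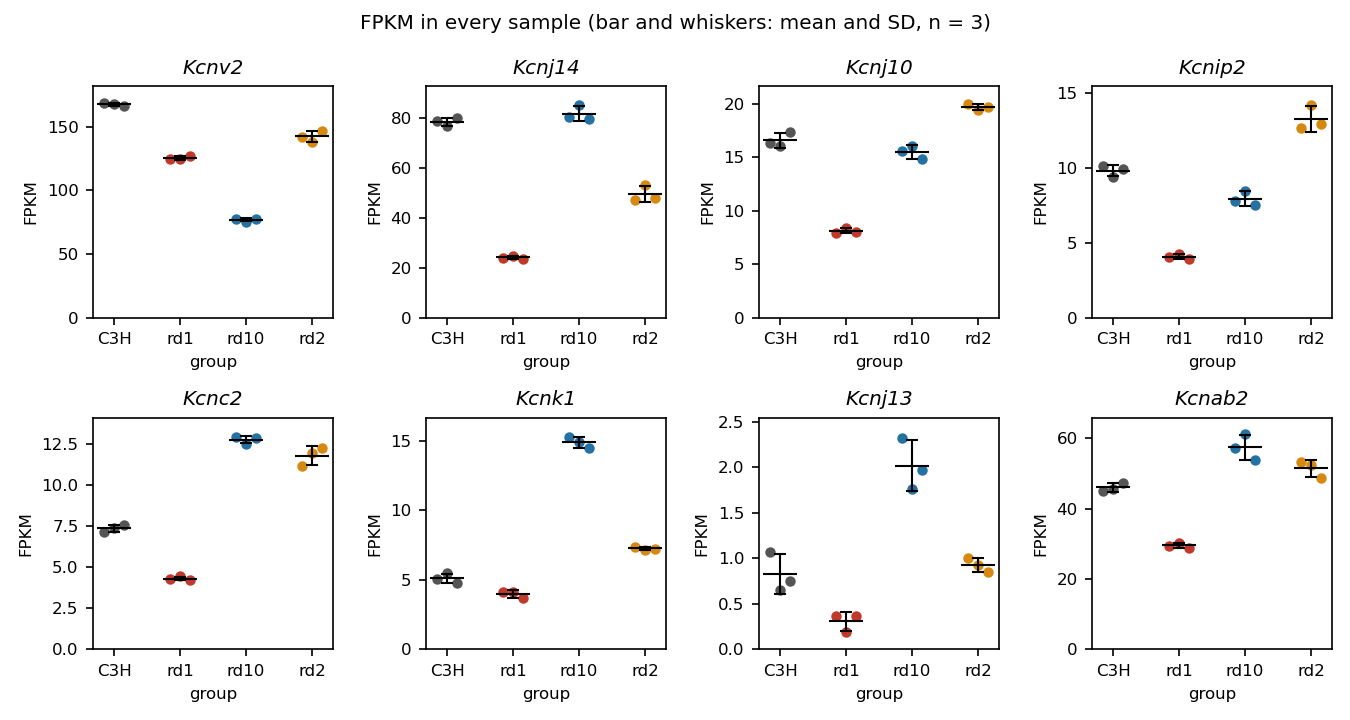
FPKM of 8 potassium channel genes in each of the 12 samples (points), with the mean and SD of each group (black, n = 3). Kcnv2 is lowest in rd10 (75.3 to 77.6 FPKM), Kcnj14, Kcnj10, Kcnip2 and Kcnab2 are lowest in rd1, and Kcnk1 is highest in rd10 (14.5 to 15.3 FPKM).

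Of the 11 inward rectifiers tested, 5 were called lower in rd1 (45.5%, against 6.03% of all genes) and none higher, with a median of -0.49 against -0.01 over all genes. Among these 5, Kcnj13 entered the test only through its C3H counts. The other 6 were not called, and Kcnj6, named after its values were seen, had a value above 0 (0.19, adjusted p = 0.030). Kcnj14 had the smallest p of all members, at 24.0, 24.7 and 23.5 FPKM in rd1, 47.0, 53.2 and 48.0 in rd2 and 80.1, 85.1 and 79.5 in rd10. It was thus 3.42-fold lower in rd1 than in C3H (log2 fold change -1.78, SE 0.04, adjusted p = 2.5e-21) and 1.62-fold lower in rd2 (-0.70, SE 0.05, adjusted p = 7.2e-07). In rd10 its log2 fold change was 0.01, with an approximate 95% interval of -0.07 to 0.08. Kcnj14 therefore did not follow Kcnv2, which was lowest in rd10.

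Kcnj10, the main potassium channel of Müller glia, was at 7.93, 8.40 and 8.04 FPKM in rd1 against 16.35, 16.03 and 17.33 in C3H (-1.10, SE 0.05, adjusted p = 2.9e-15). In rd10 it was at 15.54, 16.06 and 14.81 FPKM (-0.15, SE 0.05) and in rd2 at 20.02, 19.38 and 19.67 (0.22, SE 0.05), neither of which reached 1.5-fold. The other channel gene of the Müller glia list in the same family, Kcnj16, stayed at 13 counts or fewer in every sample and was not tested, and Kcnj2 was not called in any model (-0.31, 0.12 and 0.28 in rd1, rd10 and rd2). Of the 8 Müller glia markers, 3 were called lower in rd1 with Kcnj10, namely Glul, glutamine synthetase, at -1.54, Aqp4, the water channel found beside Kcnj10 in the glial endfeet, at -1.38, and Apoe at -0.59. The other 5 were not called, with Slc1a3 (0.00), Vim (-0.02), Gfap (0.04) and Sox9 (0.05) near 0 and Rlbp1 at -0.30, so that the median of the list was -0.16. The summed FPKM of the list was 441 to 452 in rd1 against 819 to 845 in C3H, and most of that gap was Glul, at 188 to 194 against 523 to 536 FPKM. Kcnj10 per summed marker FPKM was 0.0183 ± 0.00073 in rd1 and 0.0200 ± 0.00047 in C3H. It was 0.0170 ± 0.00016 in rd10 and 0.0219 ± 0.00096 in rd2, so that it was lowest in rd10, where Kcnj10 was not called. The part of the markers in the Kcnj10 result was not tested.

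Kcnj13, the inward rectifier of the retinal pigment epithelium, moved in opposite directions in the Pde6b models. Its counts were 27, 20 and 19 in C3H, 10, 4 and 9 in rd1, 73, 42 and 50 in rd10 and 30, 28 and 26 in rd2. It was lower in rd1 (-1.46, SE 0.40), where it entered the test only through its C3H counts, and higher in rd10 (1.26, SE 0.24, adjusted p = 0.00012), with no overlap with C3H in either model. Pigment epithelium markers in these retinas had a summed FPKM of 13.7 to 15.7 in rd1, 21.9 to 25.2 in C3H, 23.9 to 26.0 in rd10 and 22.1 to 23.1 in rd2, with 4 of 6 tested called lower in rd1 and 0 of 6 called in rd10. The other 2 markers were too low to be tested against C3H, and both had more counts in rd10, with Best1 at 1, 2 and 0 in C3H and 13, 9 and 12 in rd10 and Mlana at 3, 4 and 0 in C3H and 14, 12 and 7 in rd10. The share of this tissue left on the retinas was not tested.

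Kcnj9 and Kcnj5, subunits of the rectifiers opened by G proteins, were both lower in rd1 (-0.89 and -0.69). Kcnj9 was at 8.81, 8.85 and 9.30 FPKM in C3H, 4.89, 5.42 and 5.08 in rd1 and 17.6, 18.9 and 17.3 in rd10, where it was higher (0.94, SE 0.05, adjusted p = 5.5e-12). In rd2 it lay between C3H and rd10 (0.54, SE 0.07) and was not called, though it passed 1.5-fold without rd2 replicate 3 (0.61). Kcnj8, the rectifier of vascular mural cells, was not called in any model (-0.37 in rd1, -0.33 in rd10 and 0.17 in rd2).

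Among the 26 pore-forming voltage-gated members tested, 7 were called higher in rd10 (26.9%, against 15.9% of all genes). In rd1, 1 was called lower (3.85% against 6.03%) and in rd2, 1 was called higher (3.85% against 2.68%), both near the share of all genes. In rd1, rd10 and rd2 these members had medians of -0.24, 0.23 and 0.16. Kcnc2, a fast channel of neurons that fire at high rates, was the member called in all 3 models along with Kcnk12. It was at 7.11, 7.40 and 7.56 FPKM in C3H, 4.24, 4.43 and 4.22 in rd1, 12.9, 12.5 and 12.9 in rd10 and 11.2, 11.9 and 12.3 in rd2. Every rd1 sample lay below C3H (-0.85, SE 0.05), and every rd10 (0.74, SE 0.05) and rd2 sample (0.65, SE 0.06, adjusted p = 3.1e-06) lay above it. Its relative Kcnc1, higher in level at 17.6 ± 0.71 FPKM in C3H, was not called (-0.25, 0.27 and 0.13 in rd1, rd10 and rd2).

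The Shaker-type subunits Kcna1, Kcna2 and Kcna4, found on axons and terminals, were higher in rd10 by 0.70, 0.64 and 0.68. Kcna2 went from 12.4 ± 0.076 FPKM in C3H to 20.2 ± 1.1 in rd10, without overlap. Kcnb2 was higher in rd10 as well, at 4.97, 4.87 and 5.40 FPKM against 3.09, 2.72 and 2.78 (0.77, SE 0.06, adjusted p = 3.2e-10). Kcnh1, a channel of the ether-a-go-go family, rose in rd10 from 2.77 ± 0.23 to 4.69 ± 0.17 FPKM (0.70, SE 0.07). Kcnh1 lost its call at 0.58 with only the C3H sample of the same day, which is then assumed to vary like the 3 rd10 samples. The most abundant members of their subfamilies among the others, Kcna5 (-0.41, 0.14 and 0.04 in rd1, rd10 and rd2), Kcnd3 (-0.07, -0.11 and 0.17) and Kcnh5 (0.02, 0.48 and 0.32), were not called in any model. Kcna3, a channel of immune cells and neurons, was not called either (0.27 in rd10).

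The modifying subunits form no channels alone and change those of other voltage-gated subunits. Of the 9 tested in rd1, 3 were lower (Kcns3, Kcng2 and Kcng4), or 33.3% against 6.03% of all genes. Kcns3 entered that test only through its C3H counts. Of the 10 tested in rd10, 3 were higher (Kcng3, Kcng4 and Kcns3), or 30% against 15.9%, and 2 lower (Kcnv2 and Kcng2), or 20% against 8.08%. Kcng4 was at 10.03, 10.33 and 9.53 FPKM in C3H, 6.56, 7.46 and 6.87 in rd1 and 18.1, 18.5 and 16.1 in rd10. Its rise in rd10 was 0.76 (SE 0.06), whereas its difference in rd1 sat at the threshold (-0.60, SE 0.06) and fell under it at -0.57 without C3H replicate 2 and at -0.55 without rd1 replicate 1. Kcng2 was near 1.77-fold lower in both Pde6b models (-0.83 in rd1 and -0.82 in rd10), though it was called in neither with only the C3H sample of the same day (-0.57 and -0.70). Kcng3 and Kcns3 were low, at 15 to 18 and 17 to 20 counts in C3H. In rd10 Kcng3 had 41, 26 and 45 counts (1.08, SE 0.28, adjusted p = 0.0021). In rd2 it had 26, 35 and 29 (0.61, SE 0.28), a call whose adjusted p was 0.20 and which was lost without any 1 of the 3 C3H samples or of rd2 replicates 2 and 3 (0.49 to 0.70). Kcns2, the most abundant of its subfamily, was not called.

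Of the auxiliary subunits, 5 of 12 tested were lower in rd1 (41.7%, against 6.03% of all genes) and none was higher (against 8.98%). Kcnip2, a calcium-binding partner of A-type channels, was at 10.1, 9.38 and 9.89 FPKM in C3H and 4.02, 4.25 and 3.91 in rd1 (-1.34, SE 0.07, adjusted p = 5.6e-14). In rd10 (-0.36) and rd2 (0.40) it was not called. Kcnab2 was at 29.5, 30.3 and 28.9 FPKM in rd1 against 45.1, 45.7 and 47.5 (-0.72, SE 0.03) and was not called in rd10 (0.26) or rd2 (0.13). Kcne2 was lower in rd1 (-0.69, SE 0.06), and in rd10 it was lower by less than 1.5-fold (-0.57, SE 0.05).

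In rd10 the subunits Kcne1l and Kcnmb2 were lower. Kcne1l, also called Kcne5, was at 7.54, 6.66 and 7.59 FPKM in C3H, 7.83, 8.55 and 7.80 in rd1 and 6.60, 6.28 and 6.31 in rd2 but at 2.88, 2.70 and 2.49 in rd10 (-1.48, SE 0.12, adjusted p = 7.7e-10). The other 9 samples had 6.28 FPKM or more, so that rd10 overlapped with no group. Kcnmb2, a partner of Kcnma1, was at 1.15, 0.99 and 1.55 FPKM in rd10 against 1.87 ± 0.11 in C3H (-0.66, SE 0.15), and lost its call at -0.54 without rd10 replicate 2. Kcnma1 itself was not called (0.03, 0.13 and 0.19 in rd1, rd10 and rd2), nor was Kcnmb4, the most abundant of the Kcnmb subfamily. Kcnip4 and Kcnab3 were lower in rd1 and higher in rd10, as described further on.

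The tandem-pore channels, which carry background leak, were led by Kcnk3 (13.7 ± 0.55 FPKM in C3H), which was not called (-0.33, -0.17 and -0.08 in rd1, rd10 and rd2). Kcnk1 had the smallest p among the members higher in rd10. It was at 5.07, 5.45 and 4.76 FPKM in C3H, 4.14, 4.12 and 3.67 in rd1 and 7.37, 7.14 and 7.23 in rd2, and at 15.3, 14.9 and 14.5 in rd10. The rd10 level was 2.81-fold that of C3H (1.49, SE 0.08, adjusted p = 5.6e-13), and the rd2 difference (0.47, SE 0.09) was not called. Kcnk6, a relative of Kcnk1, had 83, 52 and 64 counts in rd10 against 19, 28 and 30 in C3H (1.31, SE 0.22, adjusted p = 2.3e-05).

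Kcnk12 and Kcnk13 encode halothane-inhibited channels, the latter known from microglia. Kcnk12 was at 1.15, 1.14 and 1.43 FPKM in C3H, 2.46, 2.84 and 2.46 in rd10 and 2.23, 2.71 and 1.57 in rd2, and was higher in both (1.00, SE 0.16, and 0.78, SE 0.21), though in rd2 not with only the C3H sample of the same day (0.56). In rd1 it was lower (-0.62, SE 0.22, adjusted p = 0.023), a call lost at -0.50 without C3H replicate 3, at -0.56 without rd1 replicate 1 and at -0.57 without rd1 replicate 3. Kcnk13 had 15, 36 and 23 counts in rd10 and 5, 16 and 18 in C3H. It met the call rule (0.89, SE 0.42), but its groups overlapped, its adjusted p was 0.076, and it lost the call without C3H replicate 1 (0.54), C3H replicate 2 (0.97) or rd10 replicate 2 (0.43). Of the 8 microglia markers 7 were called higher in rd10, while P2ry12 was at -0.36 (not called). Their summed FPKM in rd10 was 58.2 to 61.9 against 19.7 to 21.0 in C3H. It was 20.5 to 21.8 in rd1 and 17.01 to 19.22 in rd2. Kcnn4, a calcium-activated channel known from microglia, had 1, 0 and 0 counts in C3H and 10, 10 and 6 in rd10, a ratio of 26.1 with an exact 95% interval of 4.29 to 1070 that covers counting error only, and was too low to be tested. The part of the microglia in these values was not tested.

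Kcnk10 and Kcnk15 were lower in rd10. Kcnk10, a channel opened by stretch and lipids, was at 0.378, 0.384 and 0.359 FPKM in rd10 against 0.735, 0.849 and 0.788 in C3H and 0.976, 1.11 and 1.12 in rd1 (-1.14, SE 0.13, adjusted p = 2.9e-07). Kcnk15 had 13, 13 and 17 counts in C3H and 22, 25 and 26 in rd2, but 1, 4 and 2 in rd1 and 0, 2 and 0 in rd10. The summed counts over library sizes were 21.4-fold lower in rd10 than in C3H (exact 95% interval 5.58 to 183, counting error only) and 5.61-fold lower in rd1 (2.50 to 14.8). Since Kcnk15 entered both tests only through its C3H counts, no p is given.

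Among the channels opened by calcium or sodium, Kcnt1, a sodium-activated channel, was the only 1 of 7 tested that was called. That is 14.3%, against 6.03% of all genes lower in rd1 and 15.9% higher in rd10. It was at 1.43, 1.44 and 1.54 FPKM in C3H, 0.935, 0.908 and 1.04 in rd1 (-0.68, SE 0.09) and 2.51, 3.00 and 2.60 in rd10 (0.82, SE 0.08). Kcnn2, the most abundant Kcnn member, was not called (0.13, -0.05 and 0.17 in rd1, rd10 and rd2). Kcnq1ot1, the antisense RNA of the imprinted Kcnq1 locus, was at 2.05, 1.88 and 1.87 FPKM in C3H and 4.10, 3.96 and 4.15 in rd1 (1.00, SE 0.04, adjusted p = 1.1e-16). In rd10 (0.32) and rd2 (0.31) it was not called. Its exons overlap Kcnq1 on the other strand, which had 14 to 28 counts per sample and was not called (-0.04 in rd1).

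The rd10 and rd1 samples were also compared directly, in a fit of all 12 samples. Of 78 members tested, 27 were higher in rd10 (34.6%, against 17.6% of 19616 genes) and 6 lower (7.69% against 11.2%), and the median log2 difference was 0.46 against 0.00. An adjusted p under 0.05 was reached by 57 members (73.1% against 57.2% of all genes). Of the kinds of channel, 7 of 12 inward rectifiers were higher and none was lower (median 0.72), and 7 of 26 pore-forming voltage-gated members were higher and none was lower (median 0.52). Kcnj14 differed by 1.81 (SE 0.05) and Kcnj10 by 0.98 (SE 0.05). The members lower in rd10 than in rd1 were Kcnv2 (-0.66), Kcne1l (-1.53), Kcnk10 (-1.47), Kcnmb2 (-1.01), Kcnq1ot1 (-0.65) and Kcne1, with 1, 3 and 1 counts in rd10 against 18, 10 and 15 in rd1 (9.39-fold lower, exact 95% interval 3.73 to 30.4, counting error only). Kcne1, like Kcna1, Kcna4, Kcnj5, Kcng2 and Kcnq1 above, was named after its values were seen. Kcne1, Kcns3 and Kcnj13 passed the filter here only with the help of the group in which they were high. Age and sex differ between these groups as well as the allele and the background, with Ddx3y at 0 counts in each rd1 sample and 1056 to 1696 in rd10.

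By their own calls against C3H, 9 members were lower in rd1 and higher in rd10, namely Kcnab3, Kcnc2, Kcng4, Kcnip4, Kcnj9, Kcnj13, Kcnk12, Kcns3 and Kcnt1, and none was called the other way round. Both comparisons used the same C3H samples. Over all genes 6.03% were called lower in rd1 and 15.9% higher in rd10, but the share with both calls was not counted. The 9 can therefore not be read as a trait of these channels. Another 2, Kcng2 and Kcnk15, were called lower in both models, and none was called higher in both. Kcnab3 was at 6.29, 6.03 and 6.15 FPKM in C3H, 3.53, 3.85 and 3.24 in rd1 and 9.87, 10.4 and 8.58 in rd10 (-0.87 and 0.59, SE 0.09 and 0.08). The rd10 value was just above 1.5-fold, and lost its call without C3H replicate 2 (0.57), rd10 replicate 1 (0.57) or rd10 replicate 2 (0.53). Kcnip4 was at 5.81, 6.10 and 5.72 FPKM in rd1, 8.75, 8.09 and 8.34 in C3H and 13.8, 12.9 and 14.2 in rd10. Its value of -0.59 in rd1 sat at the threshold and lost its call without C3H replicate 1 (-0.56), rd1 replicate 1 (-0.57) or rd1 replicate 3 (-0.57). Kcns3 rested on few reads, with 18, 20 and 17 counts in C3H, 8, 6 and 9 in rd1 and 25, 33 and 31 in rd10. Its adjusted p in rd10 was 0.057, and its call there was lost without any 1 of the 3 C3H samples or of rd10 replicates 2 and 3 (0.49 to 0.68).

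**Figure D4:**
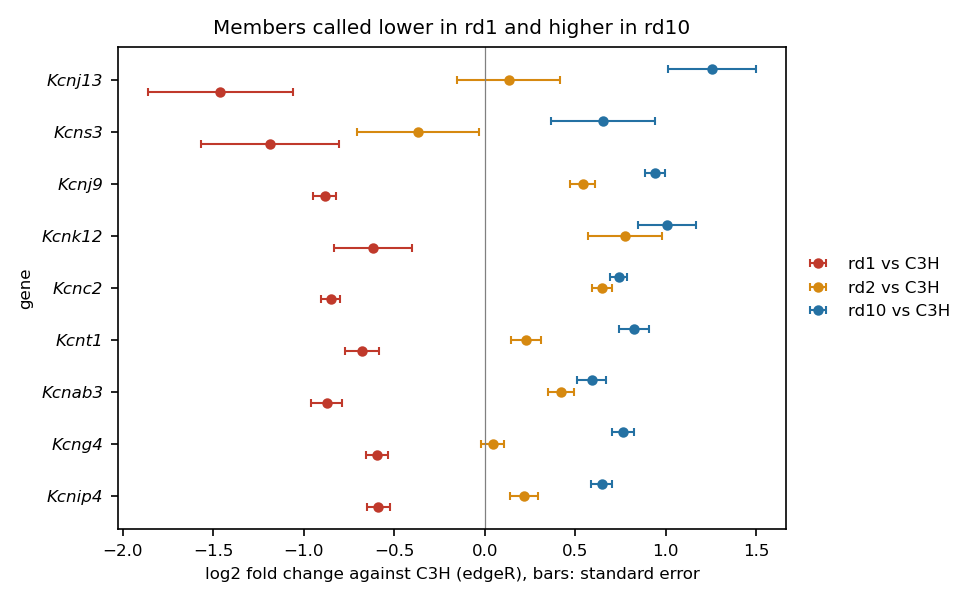
log2 fold change against C3H in rd1, rd2 and rd10 of the 9 members called lower in rd1 and higher in rd10, with standard errors from edgeR. Each rd1 point lies below 0 and each rd10 point above it; the rd2 points of Kcnc2 (0.65) and Kcnk12 (0.78) were called and the other 7 were not.

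The members known from given retinal cells were also counted as lists, to be read beside the 6.03% of all genes called lower in rd1 and the 15.9% called higher and 8.08% called lower in rd10. With so few genes in each list, the counts are a description only. Of 9 photoreceptor channels 2 were lower in rd1, and in rd10 2 were higher and 1 was lower. Of 4 microglia channels tested 2 were higher in rd10, and of 3 vascular channels none was called in any model by edgeR. The 8 channel genes of fast-spiking neurons had 2 lower members in rd1 and 3 higher in rd10, with medians of -0.40 and 0.31 and a summed FPKM of 121 to 128 in C3H, 88.9 to 95.3 in rd1, 140 to 149 in rd2 and 157 to 166 in rd10. The 9 A-type channels and partners had 2 lower in rd1 and 2 higher in rd10. Of 18 tested partners of potassium channels that do not bear a Kcn symbol, 2 were lower in rd1 (Aqp4 and Cntnap1), and in rd10 2 were lower and Lrrc38, a partner of Kcnma1, was higher (1.32). Of 16 potassium pumps and cotransporters, 4 were lower in rd1 and 4 higher in rd10, with medians of -0.33 and 0.27. Among these the exchangers of photoreceptors that move potassium out with calcium differed, as the rod gene Slc24a1 was lower in rd1 (-1.50) and the cone gene Slc24a2 was lower in rd1 (-0.65) and higher in rd10 (1.17). Cone markers had a summed FPKM of 206 to 210 in C3H, 151 to 155 in rd1, 299 to 302 in rd10 and 216 to 223 in rd2. No rod, cone, Müller glia, microglia or pigment epithelium marker was at 3 counts or fewer in all 12 samples. Lens and iris markers were low throughout, with a summed FPKM of 1.24 to 1.49 in C3H, 0.56 to 0.70 in rd1, 2.26 to 2.90 in rd10 and 1.11 to 1.22 in rd2.

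Circular RNAs, joined from a later exon end back to an earlier exon start, were counted from reads across the joining site. Of 12510 circular RNAs in the table, 47 came from 14 members, with 1506 junction reads over the 12 samples. Kcnma1 gave 16 of them and 44.3% of the reads, and Kcnh5 gave 10 and 37.5%. All 47 start and end at annotated exon ends (the table's starts count from 0). The sites below are of the 3 with the most reads and of 1 from Kcnh1, in lower case the 20 bases before the joining site and in capitals the 20 bases after it, with GRCm38 positions and numbered along each gene.
Kcnma1 circular RNA 14, 5 exons, chr14:23494539-23509900, minus strand: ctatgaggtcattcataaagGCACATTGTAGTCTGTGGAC
Kcnh5 circular RNA 8, 5 exons, chr12:75114191-75154281, minus strand: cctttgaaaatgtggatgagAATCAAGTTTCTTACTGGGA
Kcnh5 circular RNA 6, 6 exons, chr12:75087405-75154281, minus strand: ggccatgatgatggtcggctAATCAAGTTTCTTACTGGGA
Kcnh1 circular RNA 1, 4 exons, chr1:192221333-192242037, plus strand: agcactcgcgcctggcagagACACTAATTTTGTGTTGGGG
Both Kcnh5 forms begin at the same exon, so that the capitals are alike, and end at different ones.

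Kcnh5 circular RNA 8 had 8, 30 and 11 junction reads in C3H, 11, 6 and 5 in rd1, 35, 35 and 32 in rd10 and 29, 32 and 30 in rd2. Per 100000 junction reads of the sample these were 46.4, 136 and 75.7 in C3H, 140.0, 194 and 153 in rd10 and 159, 156 and 138 in rd2, so that both models lay above C3H, the nearest samples being C3H replicate 2 and rd2 replicate 3. In raw reads the rd2 samples overlapped that C3H sample. Its log2 fold change was 0.87 in rd10 (SE 0.32, adjusted p = 0.15) and 0.85 in rd2 (SE 0.34, adjusted p = 0.96), under the 2-fold threshold used for circular RNAs. Kcnh5 circular RNA 6 had 8, 14 and 12 reads in C3H and 20, 15 and 28 in rd10 (0.66, SE 0.35), and Kcnma1 circular RNA 14 had 36, 38 and 24 in C3H and 29, 30 and 26 in rd10 (-0.42, SE 0.23). Over all forms, Kcnh5 had 162.5 to 249.6 junction reads per 100000 in C3H and 140.9 to 160.4 in rd1. It had 303.9 to 406.2 in rd10 and 257.6 to 331.9 in rd2. So scaled, rd10 and rd2 lay above C3H and rd1 below it. The nearest rd1 and C3H samples, however, had 24 and 28 reads, nearly the same share. In raw reads rd2 (47 to 72) overlapped C3H (28 to 55). These sums were not tested. The linear Kcnh5 gene count, scaled in another way, had log2 fold changes of 0.02 in rd1, 0.48 in rd10 and 0.32 in rd2. Among circular RNAs that reached 2 junction reads in 3 or more samples, edgeR called 0 of 12 tested in rd1 (against 6.37% of all), 1 of 17 in rd10 (11.8% of all) and 0 of 15 in rd2 (3.44% of all). At an unadjusted p under 0.05 without the condition on fold there were 0, 2 and 1, and limma called 0, 3 and 1. The 1 called was Kcnh1 circular RNA 1, named after its values were seen, with 0 reads in each C3H sample and 4, 4 and 7 in rd10. It passed the filter only through the rd10 samples, so that its call rests on the group where it was high. With a floor of 3 reads per C3H library this was at least 1.39-fold higher. Junction reads per sample ranged from 9819 to 25009.

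**Figure D5:**
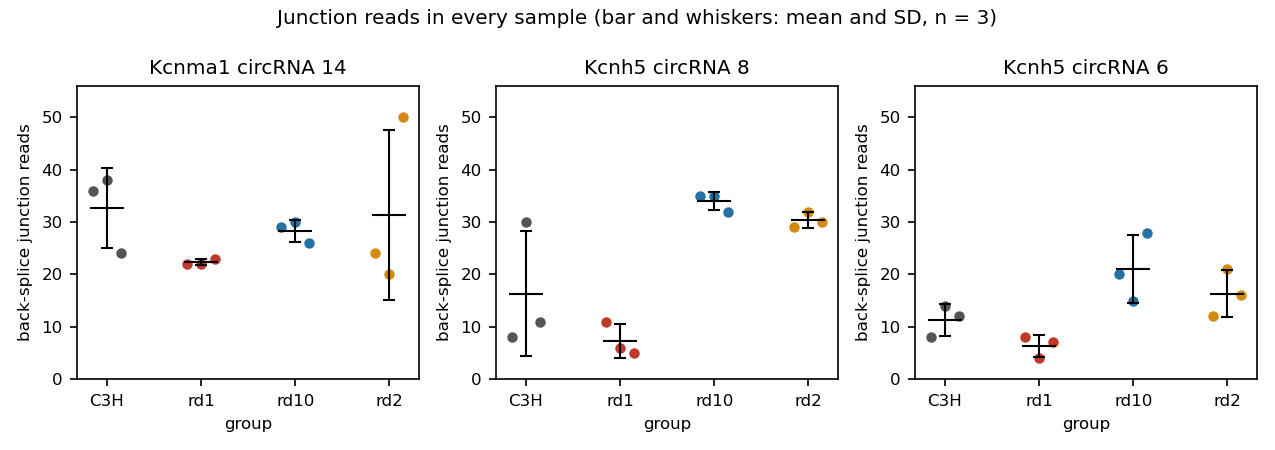
Back-splice junction reads of the 3 most abundant circular RNAs of potassium channel genes in each sample (points), with the mean and SD of each group (black, n = 3). Kcnh5 circular RNA 8 has 32 to 35 reads in rd10 and 29 to 32 in rd2, against 8, 11 and 30 in C3H.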

How the data were processed

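Ribosome-depleted RNA of whole retinas was sequenced in 12 samples. Per the study's methods and processing notes the authors aligned reads to GRCm38 and made the deposited gene counts with HTSeq 0.11.2, and the deposited FPKM values scale these to gene length and depth. For circular RNAs the authors used TopHat2 2.1.1 and CIRCexplorer on mm10, discarded candidates under 2 junction reads, and deposited junction read counts and TPM values scaled within each sample. The strand setting of the counting was not given in the sources used here.

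Here, gene counts were tested with edgeR 4.0.16 in R 4.3.3 (TMM, filterByExpr, quasi-likelihood test, Benjamini-Hochberg adjustment), each model against C3H in its 6 samples, and rd10 against rd1 in a fit of all 12. Calls needed p under 0.05 and 1.5-fold (circular RNAs 2-fold). Values of level are FPKM, and differences are log2 fold changes with SE. In data simulated for each model comparison, the test recovered 100% of genes changed 2-fold or 4-fold, and for circular RNAs 86.5% to 89% of those changed 4-fold. Of those left unchanged it called 0.63% to 0.66% of genes and 3.55% to 4.27% of circular RNAs. All features were given the same spread, those with very few expected counts were left unchanged, and changes of 1.5-fold were not simulated.

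The members, lists and tests were chosen with earlier results of these data known. Genes named were, per comparison and direction, the 5 called members of smallest p without overlap, members with a known place in the retina, the most abundant of each subfamily, Kcnc2, Kcnk12, Kcnq1ot1, the mutated Pde6b and Prph2, and those called in opposite directions. Alternatives were DESeq2 1.42.0, limma 3.58.1, other scalings and filters, single samples left out and a replicate block. Some members and sequences are not reported here.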

Additional observations from a re-analysis of the deposited data

Results flagged for a closer look

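For 9 members the response differed between the Pde6b models, as each was called lower in rd1 and higher in rd10 and the difference between rd10 and rd1, tested by edgeR in the fit of all 12 samples, had an adjusted p under 0.05. The genes were chosen by their opposite calls in these same samples, which fixes the direction of the difference, so that its test is no independent support. On the log2 scale, rd10 minus rd1 was 2.74 for Kcnj13, 1.88 for Kcns3, 1.85 for Kcnj9, 1.65 for Kcnk12, 1.62 for Kcnc2, 1.53 for Kcnt1, 1.49 for Kcnab3, 1.38 for Kcng4 and 1.26 for Kcnip4. Kcnj13 and Kcns3 rested on 4 to 10 counts per rd1 sample. In rd1 against C3H and in rd10 against rd1 both passed the filter on low counts only through the group where they were high, so that they had to differ there. One of the opposite calls was lost when certain single samples were left out for Kcng4, Kcnip4 and Kcnk12 (in rd1) and for Kcnab3 and Kcns3 (in rd10). How many of all genes had such opposite calls was not counted. Both models were first compared with the same C3H samples, and allele, age, background and sex cannot be told apart in the difference.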

How the results depend on the processing

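Of 190 results for a member named by the rule or after its values were seen, in 1 comparison each, 156 kept their side of the threshold under every alternative run. None of the 74 that were called changed sign, and 22 of the 116 that were not called did so under at least 1 alternative. Limma on log2(FPKM + 1), which compresses low genes, called fewer members: 8 lower in rd1 (17 by edgeR), 12 higher and 2 lower in rd10 (19 and 6) and 1 higher in rd2 (3). Without a filter on low counts 4 were higher in rd1 (1 with it). With only the C3H sample of the same day, a lone sample assumed to vary like the 3 of the model, 3 were lower in rd2 (1 with all 3), and leaving out 1 sample at a time gave 1 to 2, the 2 without C3H replicate 2. Among circular RNAs, limma on TPM and reads counted on genes as library size each called 3 higher in rd10 (1 by edgeR on junction reads), and limma called 1 higher in rd2 (0). Leaving out 1 sample gave 1 to 3 higher in rd10 (3 without C3H replicate 2), 0 to 1 lower in rd1 (1 without C3H replicate 1), 0 to 1 lower in rd10 (1 without rd10 replicate 2 or 3) and 0 to 2 higher in rd2 (1 without C3H replicate 1 or rd2 replicate 2, 2 without C3H replicate 2). The cause was not tested. Replicate numbers are shared by the groups but do not pair the samples, as same-numbered samples correlated in their deviations by -0.07 to 0.14. In rd1 against C3H every sample correlated best with its own number, a hint from the data and not the design, and in rd10 and rd2 this did not hold. With a replicate block 1 member was higher and 17 lower in rd1, 19 and 6 in rd10, 2 and 1 in rd2, and 28 and 6 in rd10 against rd1. As to depth, 15 members were too low to be tested, and for circular RNAs only 4-fold changes were simulated. Kcna1 in rd1 (-0.58, not called) passed 1.5-fold without C3H replicate 2 (-0.60), in a fit of all 12 samples (-0.60), without rd1 replicate 1 or 2 (both -0.59) and with only the C3H sample of the same day (-0.59).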
